A study of Mus musculus with 6 samples.

Results

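Mature dendritic cells that carry the chemokine receptor Ccr7 and the actin-bundling protein Fscn1 were described in a mouse brain tumor by droplet-based single-cell RNA sequencing. Dendritic cells take up antigen, and on maturation they lower uptake, raise costimulatory molecules, gain Ccr7 and move along its ligands toward lymph nodes, where they present antigen to T cells. In tumors such Ccr7 Fscn1 cells are known for transcribing activating and restraining signals for T cells together. They make chemokines such as Ccl22, which attracts T cells that carry Ccr4, and they are thought to arise from both conventional dendritic cell types.

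The mice had received 10000 SB28 cells, a mouse glioma line, and were sampled on day 18. There were 6 libraries in 3 groups of 2: all CD45+ (leukocyte) cells of the tumor, neutrophils sorted from blood and neutrophils sorted from tumor. All mice bore the tumor, none is labelled as treated, and strain, sex and age are not given in the sources used here. The members were looked for in the 2 CD45+ tumor libraries, of which the first held 9418 barcodes and 82077047 transcript counts (unique molecular identifiers, UMIs) and the second 8851 and 129422458. Nothing in the labels ties the numbered libraries to separate mice, so the spread between them may be technical. The p-values measure only how the difference between cell sets varied between these libraries, with a variance estimated in part from other genes.

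A cell was a member when it had at least 200 genes, at most 10% mitochondrial UMIs, less than 0.5% of UMIs from S100a8 and S100a9, and no UMI of the T cell genes Cd3e, Cd3d and Cd3g. It also had at least 0.5% of UMIs from the MHC class II genes H2-Aa, H2-Ab1, H2-Eb1 and Cd74 (the H2 share), at least 1 UMI each of Ccr7 and Fscn1, and at least 4 of Ccr7, Fscn1 and Ccl22 together. The rule found 34 and 26 cells, 60 in all, among 18066 cells that passed the filters on genes and mitochondrial UMIs, out of 37490 barcodes in the whole series. They made up 0.364% of the cells of library 1 (Clopper-Pearson 95% interval 0.252 to 0.508) and 0.298% of those of library 2 (0.195 to 0.437), a mean of 0.331% ± 0.0461 (SD, n = 2). These intervals cover counting error only. No member was found in the sorted libraries, where a count of 0 allows shares of up to 0.0963% and 0.0565% for the blood libraries and 0.0725% and 0.0456% for the tumor ones. Those sorts took neutrophils, and 86, 78, 658 and 697 of their cells passed the limit on S100a8 and S100a9.

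The members were chosen by their UMIs of Ccr7, Fscn1 and Ccl22 and by the H2 share, and these values are given as a description only. Members carried 3 to 40 Ccr7 UMIs in library 1 (median 15.5) and 3 to 73 in library 2 (median 22.5). Fscn1 ran from 1 to 36 UMIs (median 10.0) and from 1 to 38 (median 8), and Ccl22 from 0 to 41 (median 5.5) and from 0 to 96 (median 3.5). The sum of the 3 genes was nowhere near its threshold: the lowest members had 10 and 8 UMIs, the medians were 33 and 33.5, and thresholds of 4 and 8 gave the same 60 cells. Among other H2-high cells, 194 and 119 had UMIs of only 1 of Ccr7 and Fscn1, and of these 60 and 49 reached a sum of 4, with up to 81 and 100 UMIs.

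The H2 share, in contrast, cut through a continuous range. Without that criterion 144 and 186 cells passed the rest of the rule, and members were 23.6% (16.9 to 31.4) and 14.0% (9.34 to 19.8) of them. The median H2 share of all Ccr7 Fscn1 cells was 0.179% and 0.178% of UMIs, below the threshold in both libraries. In library 1, 55 of these cells had under 0.1% of UMIs from the 4 genes, 23 had 0.1 to 0.2%, 32 had 0.2 to 0.5%, 17 had 0.5 to 1% and 17 had more. In library 2 the same bins held 63, 44, 53, 14 and 12 cells. The members just inside had 0.522% and 0.503%, and the cells just outside 0.483% and 0.486%. The members are thus the H2-rich minority of the Ccr7 Fscn1 cells, and the 270 cells below the threshold (110 and 160) are described beside them.

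**Figure D1:**
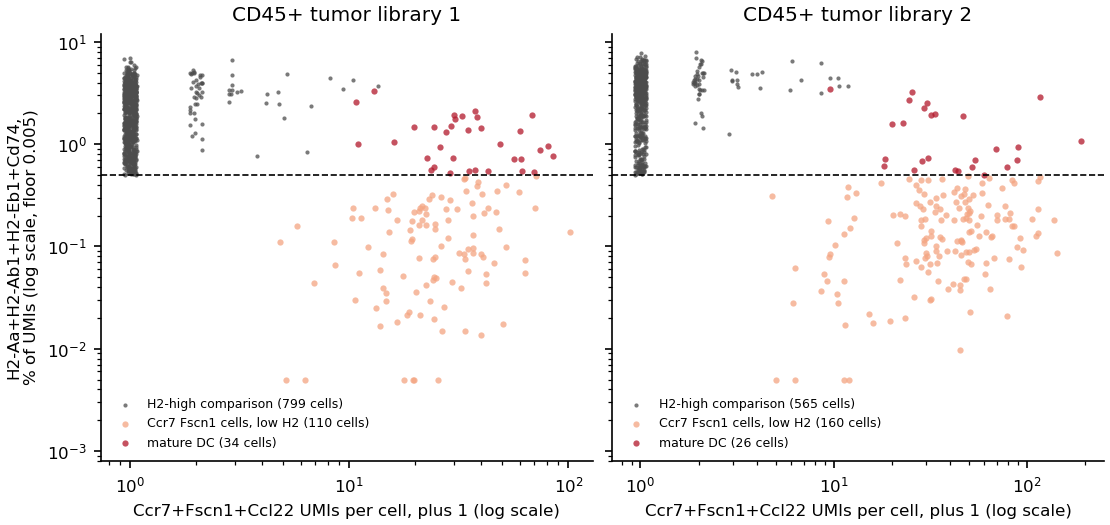
H2 share (% of UMIs from H2-Aa, H2-Ab1, H2-Eb1 and Cd74) against the summed Ccr7, Fscn1 and Ccl22 UMIs of each cell, both on log scales, in the 2 CD45+ tumor libraries. Points are cells, those with no H2 UMI are drawn at the floor, and the dashed line is the 0.5% threshold, which divides a single cloud of Ccr7 Fscn1 cells into 34 and 26 members above and 110 and 160 cells below.

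Members held 291092 and 289997 UMIs in all, with a median of 6462 and 9047 UMIs and 2460 and 2869.5 genes per cell. They were compared with 799 and 565 H2-high cells that had neither Ccr7 nor Fscn1 and at most 2 UMIs of C1qa, C1qb and C1qc (median 6758 and 10399 UMIs), and, within H2-high cells of the same kind, with 146 type 1 conventional dendritic cells (Xcr1 and Clec9a) and 478 type 2 conventional dendritic cells (Cd209a, Mgl2 and Clec10a). All of these comparisons share the member cells. UMI counts were summed per library and cell set and tested with edgeR's quasi-likelihood test with the library as a block. A gene was called at a Benjamini-Hochberg adjusted p under 0.05 over all genes tested, and CPM below are UMIs scaled to the library total after TMM normalization, with library 1 first. In a sum of cells, fewer cells that transcribe a gene and less RNA per cell cannot be told apart.

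The label was checked against marker lists. Xcr1 and Cd209a were at 0 in every member and Clec9a had 2 UMIs in all. Yet 8 of 13 type 1 markers and 10 of 11 type 2 markers had a UMI in each library. The type 2 list summed to 629 and 886 CPM in members against 1485 and 1718 in the comparison cells. The plasmacytoid dendritic cell list summed to 718 and 831 CPM in members against 573 and 426, with UMIs of 4 and 5 of its 8 markers. Its median log2 fold was nevertheless -1.64, against -0.11 over all genes. Of 8 markers tested Tcf4 was called higher and Ly6d lower (adjusted p = 0.185 without the block), and 3 had 0 UMIs in members. The T cell list summed to 13.7 and 3.45 CPM and the B or plasma cell list to 30.9 and 20.7, with Cd79a and Pax5 at 0. Macrophage transcripts were present: all 13 macrophage markers had UMIs, they summed to 11505 and 3190 CPM against 2956 and 2020 in the comparison cells, and they took more than 1% of UMIs in 5 and 2 members (up to 8.23% and 1.40%). The rule sets no C1q limit for members, and 8 and 3 of them had more than 2 C1q UMIs, so values without those 11 cells are given where they matter. Scrublet called 0 doublets, which does not show that none were present, and no member shared its barcode with another library. Removing the cells with the highest Scrublet scores took 700 of 9352 and 607 of 8714 cells that passed the filters. It took 8 of 34 and 4 of 26 members, a larger part in both libraries. Of these members 5 and 3 had more than 2 C1q UMIs.

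Against the H2-high cells, 958 of 10858 genes tested were higher in members (8.82%) and 1084 lower (9.98%), with 768 and 824 of them changed at least 2-fold, and the median log2 difference over all genes was -0.11. Without the library block 456 were higher and 311 lower, and DESeq2 called 517 and 351. The rises with the largest fold were genes nearly silent in the comparison cells. Cacnb3, a calcium channel subunit, stood at 467 and 343 CPM in members against 2.52 and 0.842 (log2 fold 7.91 ± 0.31 SE, adjusted p = 1.02e-132). Mreg, a melanosome transport protein, stood at 368 and 350 against 3.36 and 1.01 (7.37 ± 0.31, adjusted p = 1.19e-119). Both libraries of members lay far above both of the comparison for each, and the sets did not overlap for 57.2% of all genes tested. Slc22a23 (7.20 ± 0.39), Adcy6 (7.19 ± 0.59), Sned1 (6.78 ± 0.68) and Mylk, a myosin light chain kinase (6.12 ± 0.58), followed. Tmem150c had 46 and 25 UMIs in members and 2 UMIs in the 1364 comparison cells, which is a 715-fold ratio (counting interval 191 to 6018). Slco5a1 (ratio 705), Bmper, a BMP-binding protein (685), the transcription factor Tcf7 (554) and the adhesion molecule Dscaml1 (463) likewise rested on 1 or 2 comparison UMIs.

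Some genes of other H2-high cells had few or no UMIs in members. Ctnnd2, a catenin family gene, had 0 UMIs in both libraries of members against 311 and 357 CPM, at least 65.7-fold lower when 3 UMIs over all members are taken as the floor. Qpct, which encodes a glutaminyl cyclase, was at least 21.8-fold lower. With DESeq2 neither was called (adjusted p = 0.177 for Ctnnd2 and 0.349 for Qpct). The monocyte genes Ifitm6 (ratio 54.3, counting interval 18.6 to 264) and Ly6c2 (26.4, 9.02 to 128) were close to absent, as were Gm36723 (34.5) and Plekhg3 (35.2). The immunoglobulin gene Igkc (log2 fold -5.37 ± 0.42, adjusted p = 2.47e-35) and the B cell factor Ebf1 (ratio 33.0) fell as well, and the comparison held 175 and 58 cells with B cell genes or Siglech, a plasmacytoid dendritic cell gene. Without those cells Igkc had a log2 fold of 0.23. Without the block, Ebf1 had an adjusted p of 0.076.

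**Figure D2:**
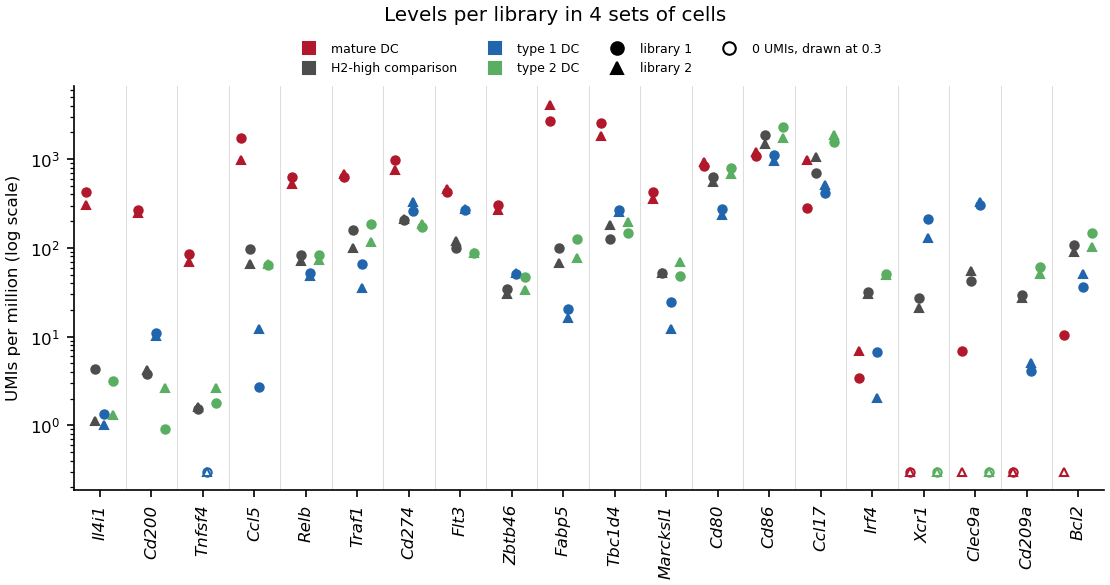
Levels of 20 genes (CPM without TMM scaling, log scale) in members, H2-high comparison cells, type 1 and type 2 dendritic cells; circles are library 1, triangles library 2, open symbols 0 UMIs drawn at the floor. Il4i1, Cd200, Ccl5, Relb and Fabp5 of the members lie above all other sets in both libraries, Ccl17 overlaps between members and comparison cells, and Xcr1 and Cd209a are at 0 in the members.

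Of 15 tested genes in the T cell restraint list 7 rose and 4 fell (7 and 1 without the block), with a list median of 0.97 against -0.11 over all genes. Il4i1 (chr7:44816387-44840809, plus strand, mm10), a secreted enzyme that degrades aromatic amino acids and limits T cell growth, stood at 411 and 309 CPM in members against 4.20 and 1.18 (log2 fold 7.10 ± 0.30, adjusted p = 5.34e-116). After thinning each cell to 2000 UMIs, an Il4i1 UMI was found in 58.8% (40.7 to 75.4) and 34.6% (17.2 to 55.7) of members, against 0.422% and 0.181% of comparison cells and 0.496% and 0.308% of C1q-rich macrophages, the level free RNA could give. Cd200 (chr16:45382135-45409053, minus strand), whose receptor inhibits myeloid cells, stood at 258 and 246 CPM against 3.70 and 4.38 (5.95 ± 0.31, adjusted p = 9.08e-79). Cd274 (chr19:29367455-29388095, plus strand), the ligand PD-L1 of the checkpoint receptor PD-1, was also well transcribed in other H2-high cells. It stood at 944 and 766 CPM against 201 and 222 (2.01 ± 0.20, adjusted p = 2.64e-22). The members did not overlap the comparison for any of these genes, and neither did they for 57.2% of all genes tested, so non-overlap alone sets no gene apart here. The others that rose were Nectin2, Socs2, Fas and Pdcd1lg2, and Havcr2, Lgals9, Vsir and Socs3 fell.

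Costimulatory genes divided. Tnfsf4, the OX40 ligand, stood at 82.8 and 69.3 CPM against 1.51 and 1.68 (5.54 ± 0.54, adjusted p = 2.47e-22). Cd40, the receptor for the T cell ligand CD40L, stood at 119 and 55.5 against 28.7 and 21.4 (1.77 ± 0.33), and Cd83, a maturation marker, at 1159 and 881 against 545 and 429 (1.06 ± 0.19). The CD28 ligands moved apart: Cd80 was higher (811 and 940 against 612 and 578, 0.55 ± 0.19, adjusted p = 0.0237) and Cd86 lower (1053 and 1217 against 1814 and 1576, -0.58 ± 0.19, adjusted p = 0.0169). The libraries did not overlap for any of the 4, as for 57.2% of all genes tested. Without the library block their adjusted p were 0.060 for Cd40, 0.066 for Cd83, 0.172 for Cd80 and 0.183 for Cd86. DESeq2 gave an adjusted p of 0.168 for Cd80 and 0.162 for Cd86. Of 10 tested costimulation genes 6 rose and 3 fell (median 0.81), and without the block 1 rose and 1 fell.

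The NF-kB system, which in its noncanonical branch runs through Map3k14, Nfkb2 and Relb and is held back by Traf3 and Birc2, was raised in several parts. Relb (chr7:19606217-19629438, minus strand) stood at 606 and 530 CPM against 82.2 and 74.6 (2.86 ± 0.21, adjusted p = 3.86e-39), Nfkb2 at 182 and 132 against 53.6 and 42.1 (1.71 ± 0.26), and Rel at 1834 and 1900 against 674 and 656 (1.49 ± 0.19). The adaptors and ligases rose too: Birc2 stood at 384 and 534 CPM against 37.5 and 43.4 (3.49 ± 0.23), Traf1 at 606 and 676 against 154 and 104 (2.33 ± 0.20) and Traf3 at 613 and 357 against 136 and 95.1 (2.05 ± 0.21). None of the 6 overlapped between the sets, as was so for 57.2% of all genes tested. Nfkb1, Nfkbib and Map3k14 also rose, and Ikbke (adjusted p = 0.237 with DESeq2) and Tnip3 fell, so that 9 of 25 tested genes rose and 2 fell (9 and 0 without the block) with a median of 0.73. Birc3 (log2 fold 0.39, adjusted p = 0.254) and the inhibitor Nfkbia (0.49, adjusted p = 0.0584) did not pass. Nfkb2, Rel and Traf3 were chosen to show the promoter of NF-kB genes that rose and hold the NF-kB motif in the 250 bases before the start, from RefSeq on GRCm38.p6, 5′ to 3′ on the gene's strand. The motif was searched on both strands, and overlapping matches are joined in capitals. Nfkb2 (chr19:46304487-46304736, plus strand) has 2 stretches, 39 to 29 and 11 to 2 bases before the start. Rel (chr11:23770970-23771219, minus strand) has 1 at 92 to 82, and Traf3 (chr12:111166120-111166369, plus strand) has 1 at 10 to 1.
Nfkb2: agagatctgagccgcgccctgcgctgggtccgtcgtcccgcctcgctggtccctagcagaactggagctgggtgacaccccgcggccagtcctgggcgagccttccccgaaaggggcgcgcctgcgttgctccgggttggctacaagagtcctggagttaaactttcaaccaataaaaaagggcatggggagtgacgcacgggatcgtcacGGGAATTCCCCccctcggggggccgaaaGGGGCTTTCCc
Rel: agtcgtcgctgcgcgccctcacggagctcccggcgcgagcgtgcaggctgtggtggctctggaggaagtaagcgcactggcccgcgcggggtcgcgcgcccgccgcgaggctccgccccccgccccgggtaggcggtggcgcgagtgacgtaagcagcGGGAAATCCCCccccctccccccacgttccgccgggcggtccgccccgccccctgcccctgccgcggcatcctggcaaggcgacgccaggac
Traf3: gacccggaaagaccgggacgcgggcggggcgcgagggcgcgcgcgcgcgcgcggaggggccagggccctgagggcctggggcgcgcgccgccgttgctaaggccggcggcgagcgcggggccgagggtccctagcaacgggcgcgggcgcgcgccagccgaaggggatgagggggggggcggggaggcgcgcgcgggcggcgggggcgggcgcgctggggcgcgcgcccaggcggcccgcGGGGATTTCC
Such a motif occurred in 7.25% of 32851 promoter windows, in 10.6% of the 8549 tested genes with a window, in 15.5% of 759 genes higher in members and in 12.5% of 829 lower genes. It occurred in 9 of 20 genes of the NF-kB list, some of which are known targets of the factor. A match describes letters and is not a binding site.

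Chemokine ligands did not move as a group against H2-high cells. Ccl5 (chr11:83525778-83530518, minus strand), a chemokine that attracts T cells, stood at 1685 and 995 CPM against 95.6 and 69.0 (4.0 ± 0.21, adjusted p = 1.17e-75). Of 15 tested ligands 4 rose and 6 fell (median -0.08); without the block 1 rose and 2 fell. The inflammatory chemokine Ccl4 fell (49.7 and 27.7 against 227 and 353, -2.86 ± 0.29, adjusted p = 2.92e-20), so Ccl4 and Ccl5 moved in opposite directions. Ccl17, which shares the receptor Ccr4 with Ccl22, stood at 272 and 978 CPM in members against 693 and 1107. Its log2 fold was -0.72 ± 0.20 (adjusted p = 0.00286), but the sets overlapped, and the adjusted p was 0.649 without the block and 0.154 with DESeq2. Cxcl9, a ligand of Cxcr3, had 93 UMIs in 7 of 34 members of library 1, 39 of them in 1 cell, and 0 UMIs in library 2. Its log2 fold of 1.37 turned to -2.75 without library 1 and to -0.29 with DESeq2. Cxcl16 was higher at 636 and 544 CPM against 343 and 319 (0.83 ± 0.20, adjusted p = 0.000255, and 0.070 without the block). Against type 1 cells 8 of 12 tested ligands were higher and 1, Ccl4, was lower (median 1.28), where 14.1% and 13.2% of all genes were. Against type 2 cells 4 of 13 were higher and 4 lower (median 0.25), where 11.3% and 11.5% of all genes were. Both counts include the members with more than 2 C1q UMIs, and whether the comparisons differ was not tested.

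Of 13 tested chemokine receptors and egress genes 3 rose and 5 fell (median -0.58 against -0.11 over all genes). Without the block 0 rose and 3 fell. Over all genes tested 8.82% rose and 9.98% fell with the block. Ccr1, a receptor for inflammatory chemokines, stood at 59.6 and 52.0 CPM against 191 and 280 (-2.05 ± 0.28, adjusted p = 7.43e-12). The monocyte receptor Ccr2 (-1.61 ± 0.26) also fell, though its adjusted p was 0.090 without the block and 0.101 against only those comparison cells that had Flt3 or Zbtb46 UMIs. Gpr183, an oxysterol receptor that positions dendritic cells in lymphoid tissue, rose at 414 and 655 CPM against 216 and 267 (1.12 ± 0.20, adjusted p = 3.55e-07; without the block 0.0758). Cxcr4 was not called (0.32 ± 0.26, adjusted p = 0.462). This list depended on the comparison. Against type 1 cells 5 of 7 tested were higher and 1 lower (median 1.25), where 14.1% and 13.2% of all genes were. Ccr1, Ccr2, Cxcr4 and Gpr183 were among the 5. Against type 2 cells 4 of 9 were higher and 4 lower (median 0.90), where 11.3% and 11.5% of all genes were. Cxcr4 and Gpr183 were among the higher genes, and Ccr1 and Ccr2 among the lower. Both counts include the members with more than 2 C1q UMIs.

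Genes of migration and the cytoskeleton rose more often than they fell, 13 against 3 of 26 tested (median 0.48; 8 against 1 without the block). Tbc1d4, a Rab GTPase-activating protein, stood at 2457 and 1837 CPM against 123 and 189 (3.80 ± 0.21), the tetraspanin Cd63 at 858 and 815 against 45.4 and 65.6 (3.93 ± 0.21), and Marcksl1, an actin-binding protein, at 407 and 361 against 51.1 and 55.2 (2.85 ± 0.22). The members were above the comparison in both libraries for each, and the sets did not overlap for 57.2% of all genes tested. Cytoplasmic actin Actg1 had a log2 fold of 0.44 (adjusted p = 0.0945).

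Cytokines and their receptors included 9 genes that rose and 5 that fell of 24 tested (8 and 1 without the block), with a median of -0.11, the same to 2 decimals as that of all genes. Il12b (chr11:44400063-44414033, plus strand), a subunit of interleukins 12 and 23, had 23 and 6 UMIs, or 76.2 and 20.8 CPM against 1.34 and 2.86 (4.45 ± 0.60, adjusted p = 4.70e-12), and 13 of the 23 UMIs came from 1 cell. It was found in 3 of 34 and 5 of 26 members. Il15ra, which presents interleukin 15 to lymphocytes, stood at 62.9 and 41.6 CPM against 5.21 and 8.92 (2.91 ± 0.50), and Il15 at 36.4 and 24.3 against 6.55 and 5.89 (2.27 ± 0.59; adjusted p = 0.0733 with DESeq2). The TNF receptors Tnfrsf4 (92.7 and 104 CPM against 2.52 and 2.02, 5.41 ± 0.49) and Tnfrsf9 (387 and 631 against 61.7 and 65.3, 2.97 ± 0.22) rose with larger differences. Flt3, the receptor for the dendritic cell growth factor, rose at 407 and 461 against 97.0 and 125 (1.97 ± 0.21).

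Of 23 tested dendritic cell transcription factors 12 rose and 5 fell (median 0.65; 9 and 2 without the block). Zbtb46, a factor of the conventional dendritic cell lineage, stood at 291 and 267 CPM against 33.4 and 32.0 (3.09 ± 0.24, adjusted p = 6.97e-35). Spib rose (4.08 ± 0.59; adjusted p = 0.0502 without the block) and so did Ikzf4 (3.03 ± 0.55) and Stat4 (1179 and 1089 against 213 and 179, 2.54 ± 0.20). Irf4, linked to type 2 cells, had 3 UMIs in all members and was lower by a ratio of 6.27 (counting interval 2.13 to 30.6), a call lost with DESeq2 (adjusted p = 0.164) and without the highest Scrublet scores (0.0531). Irf8, linked to type 1 cells, stood at 384 and 367 CPM against 245 and 232 (0.65 ± 0.20, adjusted p = 0.00999; without the block 0.105, with DESeq2 0.160 and against cells with Flt3 or Zbtb46 UMIs 0.571).

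Of 14 tested MHC class II processing genes 2 rose and 9 fell (median -0.88), although the members were chosen for a high H2 share. The rule's 4 genes were left out of the tests, and without the block 0 rose and 5 fell. The peptide-loading genes H2-DMa (166 and 177 CPM against 534 and 686, -1.82 ± 0.22), H2-DMb1 (106 and 72.8 against 362 and 468, -2.20 ± 0.25) and H2-DMb2 (59.6 and 121 against 161 and 216, -1.09 ± 0.26) all fell. Their sets did not overlap, as in 57.2% of all genes tested, and H2-DMb2 had an adjusted p of 0.150 without the block. Ciita, the master activator of class II transcription, stood at 43.0 and 86.7 CPM against 207 and 179 (-1.59 ± 0.28, adjusted p = 1.91e-07; without the block 0.0498). March1, a ligase that removes class II from the surface and is shut off on maturation, fell most (39.7 and 6.93 against 247 and 182, -3.22 ± 0.34, adjusted p = 1.19e-19). The median H2 share was 1.00% and 0.922% in members and 2.24% and 3.33% in comparison cells, so these genes were compared at unequal H2 shares, and the part of that in their differences was not tested. The promoters of H2-DMb1 (chr17:34152941-34153190, plus strand) and H2-DMb2 (chr17:34144999-34145248, plus strand) show the letters ATTGG, the Y box core of class II promoters, in capitals at 61 to 57 and 90 to 86 bases before the start.
H2-DMb1: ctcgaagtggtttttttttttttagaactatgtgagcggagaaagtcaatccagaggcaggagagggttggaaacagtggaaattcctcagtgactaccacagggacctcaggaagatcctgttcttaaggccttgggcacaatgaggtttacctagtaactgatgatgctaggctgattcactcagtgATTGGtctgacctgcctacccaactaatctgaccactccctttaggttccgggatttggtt
H2-DMb2: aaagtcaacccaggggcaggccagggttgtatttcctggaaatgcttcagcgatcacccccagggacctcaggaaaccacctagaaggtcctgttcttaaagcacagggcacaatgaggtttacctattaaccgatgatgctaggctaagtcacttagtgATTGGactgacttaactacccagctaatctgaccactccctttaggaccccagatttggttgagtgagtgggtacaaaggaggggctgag
ATTGG on either strand occurred in 8 of 12 promoters of this list, in 33.8% of all promoter windows and in 40.3% of those of tested genes.

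Of 19 tested MHC class I genes 11 rose and 1 fell (median 0.58), among them H2-Q7 (487 and 475 CPM against 102 and 122, 2.11 ± 0.21), the proteasome activator Psme2 (546 and 846 against 156 and 193, 1.97 ± 0.20) and Nlrc5, the activator of class I transcription (189 and 142 against 56.3 and 35.2, 1.87 ± 0.26). Without the block 4 rose and 0 fell. The class I chain H2-K1 and B2m rose by 0.64 and 0.53 on the log2 scale, with adjusted p of 0.137 and 0.388 without the block.

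Of 20 tested antigen uptake genes 1 rose and 11 fell against H2-high cells (median -0.68; 1 and 5 without the block). The list depended on the comparison: 7 were higher and 3 lower of 16 against type 1 cells (median 0.89; 1 and 7 of 11 without members over 2 C1q UMIs), and 4 were higher and 4 lower of 18 against type 2 cells (1 and 10 without those members). The exception was Ly75, the endocytic receptor DEC-205, at 467 and 322 CPM against 24.0 and 34.7 (3.75 ± 0.24, adjusted p = 1.36e-53). The lectin Clec10a (-3.05 ± 0.47) and the integrin Itgam (142 and 97.1 against 275 and 307, -1.28 ± 0.24; adjusted p = 0.194 against cells with Flt3 or Zbtb46 UMIs) fell. Of 16 pattern recognition genes 0 rose and 7 fell (median -0.74), led by Tlr3 (ratio 9.19, counting interval 2.53 to 76.1; adjusted p = 0.119 with DESeq2) and followed by the inflammasome sensor Nlrp3 (126 and 76.3 against 398 and 411, -2.01 ± 0.24); without the block 1 fell. Against type 1 cells 2 of 7 were higher and 3 lower, and against type 2 cells 0 of 11 were higher and 2 lower. Of 28 interferon-stimulated genes 4 rose, Gbp2, Gbp5 and Irf1 among them, and 10 fell (median -1.02), Ifit3 (ratio 14.7, counting interval 4.06 to 122) and Rsad2 among them. Without the block 1 rose and 3 fell. Against type 1 cells 4 of 17 were higher and 3 lower (median -0.50), and against type 2 cells 4 of 24 were higher and 6 lower (median -0.32). Over all genes 14.1% were higher and 13.2% lower against type 1 cells, and 11.3% and 11.5% against type 2 cells.

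Survival genes included 9 that rose and 3 that fell of 20 (median 0.50), against 5 and 2 without the block. The granzyme inhibitor Serpinb9 stood at 298 and 409 CPM against 32.1 and 29.1 (3.52 ± 0.24) and Serpinb6b at 305 and 426 against 7.90 and 9.93 (5.34 ± 0.26). Bcl2 had 3 UMIs in all members and was lower by a ratio of 19.7 (6.73 to 95.8). Glycolysis and hypoxia genes fell in 13 of 27 tested and rose in 1, Pfkfb3 (median -0.72); without the block 4 fell. Pfkp stood at 156 and 201 against 639 and 624 (-1.83 ± 0.22), and Gapdh did not differ detectably (0.13 ± 0.19, adjusted p = 0.736). Fabp5, a fatty acid carrier, rose from 97.0 and 71.4 CPM in the comparison to 2593 and 4143 (5.30 ± 0.23, adjusted p = 3.53e-115). Cycling was not raised: Mki67 had 8 UMIs in all members (-0.87 ± 0.59, adjusted p = 0.360).

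**Figure D3:**
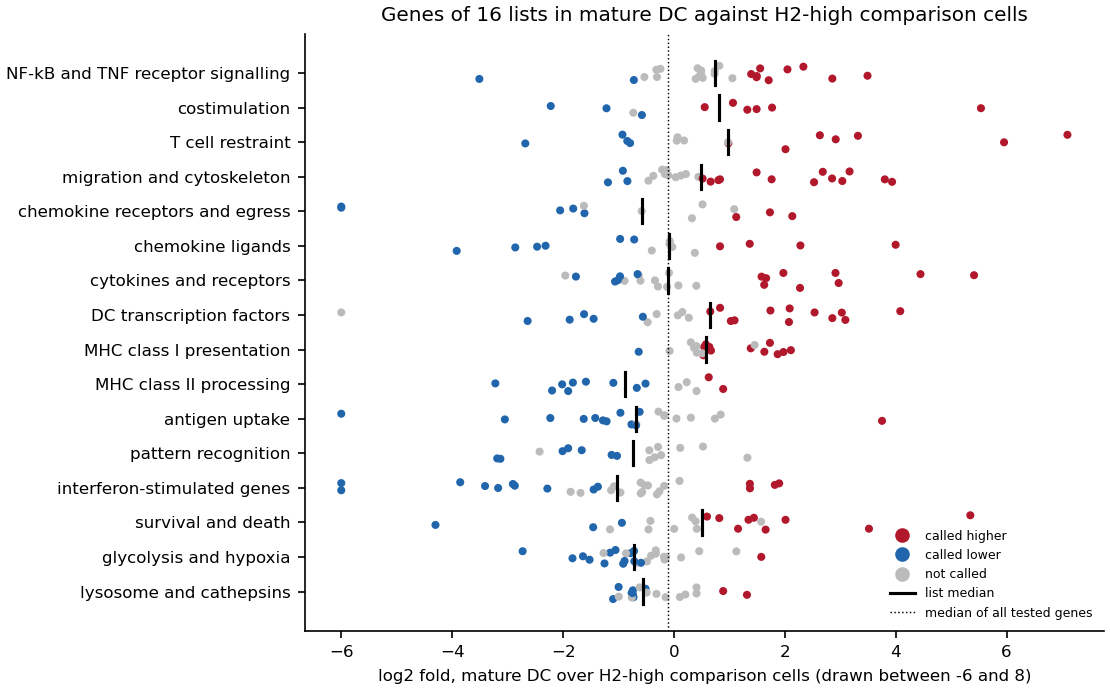
Log2 differences between members and H2-high comparison cells for the genes of 16 lists, 1 point per tested gene (red called higher, blue called lower, gray not called), with list medians as black bars and the median of all tested genes (-0.11) as a dotted line. The NF-kB, costimulation, restraint and class I lists lie right of it, and the class II, uptake, pattern recognition and glycolysis lists lie left.

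Macrophage genes moved with a few members. Apoe stood at 7010 and 881 CPM against 1479 and 1049, and 998 of the 2117 UMIs of library 1 came from 1 cell. Its log2 fold was 1.04 ± 0.21 (adjusted p = 1.07e-05), and -1.98 without the members that had more than 2 C1q UMIs. Pf4 went from 2.75 ± 0.21 to -1.33, and F13a1 from 0.10 to -4.78, in the same step, so these rises are not given as properties of the members. Without those cells the log2 fold was 5.52 for Fabp5 and 4.09 for Cd63, and that of Il12b went from 4.45 to 3.80.

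Against type 1 dendritic cells, 898 of 6350 genes were higher in members (14.1%) and 838 lower (13.2%). Against type 2 dendritic cells, 966 of 8562 were higher (11.3%) and 986 lower (11.5%), or 640 and 518 without the block. Il4i1 had 2 UMIs in all type 1 cells, a ratio of 294 (80.3 to 2440), and a log2 fold of 7.33 ± 0.35 against type 2 cells. Ccl5 stood at 1631 and 989 CPM against 2.77 and 12.8 in type 1 cells (7.20 ± 0.44, adjusted p = 1.87e-07) and at 1685 and 1004 against 63.0 and 69.8 in type 2 cells (4.29 ± 0.24). Relb differed by 3.41 ± 0.24 and 2.85 ± 0.23, Cd274 by 1.46 ± 0.24 and 2.25 ± 0.22, and Zbtb46 by 2.35 ± 0.24 and 2.80 ± 0.25, so each was above both conventional types.

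Irf8 lay between the types: members at 372 and 365 CPM were below type 1 cells at 937 and 840 (-1.27 ± 0.23, adjusted p = 0.00111), and at 384 and 371 above type 2 cells at 75.6 and 77.4 (2.30 ± 0.23, adjusted p = 1.34e-15). Flt3 was not called against type 1 cells (0.61, adjusted p = 0.0515) and was higher than in type 2 cells (2.30 ± 0.23). Irf4 was lower than in type 2 cells by a ratio of 10.0 (3.38 to 48.8), and Ccl17 fell from 1506 and 1959 CPM in type 2 cells to 272 and 987 in members (-1.68 ± 0.23, adjusted p = 6.05e-10; without the block 0.0987). NF-kB genes rose in 16 and fell in 1 of 24 against type 1 cells, and rose in 10 and fell in 2 of 25 against type 2 cells. Glycolysis genes rose in 6 and fell in 2 of 22 against type 1 cells, but rose in 2 and fell in 10 of 25 against type 2 cells (4 and 2, and 1 and 6, without the block); whether these comparisons differ was not tested. Ctnnd2 (at least 55.7-fold and 98.7-fold lower) and Qpct (at least 32.4-fold and 32.1-fold lower) had 0 UMIs in members. With DESeq2 Ctnnd2 was not called against type 1 cells (adjusted p = 0.176), nor Qpct against either type (0.257 and 0.262). Large rises against type 1 cells were Dscam (at least 74.4-fold), Tmem150c (at least 65.3-fold) and the interleukin 2 receptor chain Il2ra (at least 61.6-fold), and against type 2 cells Cacnb3 (at least 707-fold), Slc22a23 (at least 342-fold) and Tcf7 (at least 162-fold). With DESeq2 Dscam, Tmem150c and Il2ra were not called (adjusted p = 0.194, 0.164 and 0.166), nor was Tcf7 (0.0832).

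The members were then set beside the 270 Ccr7 Fscn1 cells below the H2 threshold, a comparison chosen after the distribution of the H2 share was seen. Of 6425 genes tested 129 were higher (2.01%) and 164 lower (2.55%) in members. Without the library block 0 and 0 passed (edgeR; with it 926 genes had an unadjusted p under 0.05), so no call below holds without it, DESeq2 called 13 and 13, and without cells over 2 C1q UMIs 35 and 26 passed. Several genes raised against H2-high cells were not called here. Cd274 stood at 964 and 805 CPM in members and 836 and 766 below the threshold, and Relb at 619 and 557 against 576 and 490. Cd200 (log2 fold -0.11 ± 0.22), Flt3 (-0.09 ± 0.21), Zbtb46 (-0.11 ± 0.22), Traf1 (-0.02 ± 0.20) and Cd86 (-0.03 ± 0.19) were not called, which does not show that their levels were equal.

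Class II genes outside the rule differed, though they move with the H2 share that divides the sets. Ciita had 13 and 25 UMIs in members (44.0 and 91.0 CPM) and 0 and 2 UMIs in the 270 cells below, a ratio of 77.7 (20.1 to 665, adjusted p = 1.35e-14; without the block 0.0603). After thinning, Ciita was found in 14.7% (4.95 to 31.1) and 19.2% (6.55 to 39.4) of members, in 0 of 106 and 0 of 157 cells below, and in 30.4% and 26.9% of comparison cells. H2-DMb2 stood at 60.9 and 127 CPM against 1.30 and 5.11 (4.75 ± 0.52; without the block adjusted p = 0.0603). Of 12 tested class II genes 5 were higher and 0 lower (median 0.47 against 0.01 over all genes). The members stood between the cells below the threshold and the H2-high comparison cells for Ciita, H2-DMa, H2-DMb1 and H2-DMb2. The median H2 share ran in the same order. It was 0.0994% and 0.127% below the threshold, 1.00% and 0.922% in members and 2.24% and 3.33% in comparison cells. The sets were cut on that share, so the order of these genes is given as a description only.

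Of 20 tested cytokine and receptor genes 1 (Il1b) was higher and 3 were lower in members (median 0.03 against 0.01 over all genes). Il12b stood at 77.8 and 21.8 CPM in members against 323 and 236 below the threshold (-2.53 ± 0.29, adjusted p = 1.35e-14; without the block 0.115), and after thinning it was found in 5.88% and 0 of members against 23.6% (15.9 to 32.8) and 24.2% (17.7 to 31.7). Il15ra stood at 64.3 and 43.7 against 201 and 232 (-1.99 ± 0.29; without the block 0.0876) and Il15 at 37.2 and 25.5 against 117 and 117 (-1.90 ± 0.36; without the block 0.115). Ccl5 stood at 1722 and 1045 against 3229 and 3589 (-1.34 ± 0.19, adjusted p = 7.99e-10; without the block 0.189). In none of these 4 genes did the libraries of the sets overlap, as in 39.8% of all genes tested. The call of Il12b was also lost without the highest Scrublet scores (0.0718), and that of Il15 with DESeq2 (0.265). Ly75, Tnfsf4, Serpinb9 and Socs1 were lower in members too. Il4i1 was higher (419 and 324 against 147 and 188, 1.14 ± 0.22, adjusted p = 3.69e-05; without the block 0.189, with DESeq2 0.197, with depth-matched cells 0.140), as was Fabp5 (2649 and 4352 against 1118 and 1985, 1.19 ± 0.18). Ccl17 was called higher (277 and 1027 against 173 and 442, 0.98 ± 0.21, adjusted p = 0.000281), but the sets overlapped and the block set the call (0.632 without it). Il1b stood at 1005 and 1431 against 520.1 and 527 (1.20 ± 0.20). Pf4 (3.28 ± 0.24) rested on 1 cell in each library, with 61 of 114 and 209 of 316 UMIs, and had a log2 fold of 0.05 without cells over 2 C1q UMIs. Median depth was 5221 and 8519.5 UMIs below the threshold, lower than in members, and with depth-matched cells 7 genes were higher and 6 lower. Matching also left only 31 and 52 of the cells below the threshold, so depth and the number of cells changed together.

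**Figure D4:**
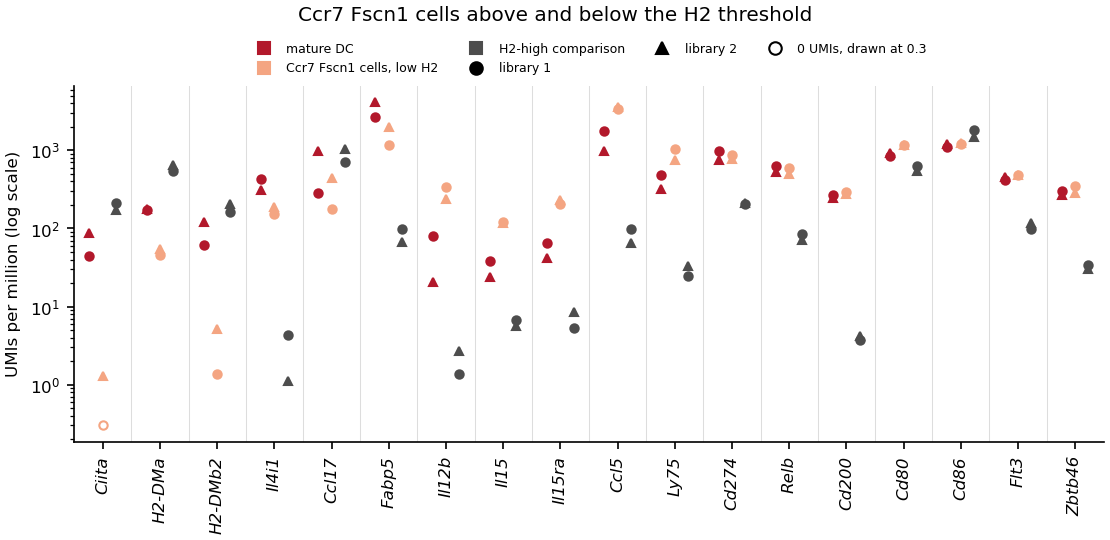
Levels of 18 genes (CPM without TMM scaling, log scale) in members, Ccr7 Fscn1 cells below the H2 threshold and H2-high comparison cells; circles are library 1, triangles library 2, open symbols 0 UMIs. Cd274, Relb, Cd200 and Zbtb46 lie close together in both Ccr7 Fscn1 sets, Ciita and H2-DMb2 are lowest below the threshold, and Il12b, Il15ra and Ccl5 are highest there.

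The members also varied among themselves. Ccl5 ran from 0 to 81 UMIs per cell in library 1 (median 4) and from 0 to 60 in library 2 (median 5.5), and Ccl17 from 0 to 15 (median 0) and from 0 to 64 (median 0.5). Cd274 ran from 0 to 24 (median 7) and 0 to 18 (median 8), and Relb from 0 to 16 (median 5) and 1 to 21 (median 5.5), and a UMI was found in 32 and 25 members for Cd274 and in 33 and 26 for Relb. Ccl17 had a UMI in 15 of 34 and 13 of 26 members. Members with Ccl17 were compared with as many without, matched on depth (13 and 5 cells a side). Of 1783 genes 1 was higher, the monocyte gene F13a1 (0.0561%), and 0 were lower (0%), with 89 at an unadjusted p under 0.05; DESeq2 called 0. The call of F13a1 rests on 52 and 44 UMIs against 1. The same split by Il12b left 3 cells a side in each library: 0 of 663 genes were higher (0%) and 1, Pf4, was lower (0.151%), with 43 at an unadjusted p under 0.05, and DESeq2 called 2 and 2. At these sizes the simulated splits recovered 14 of 100 changes of 2-fold for Ccl17 and 21 of 100 for Il12b, so most differences of that size would not be detected. Both F13a1 and Pf4 turned lower against H2-high cells when members over 2 C1q UMIs were left out. Neither split was repeated without those members.

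**Figure D5:**
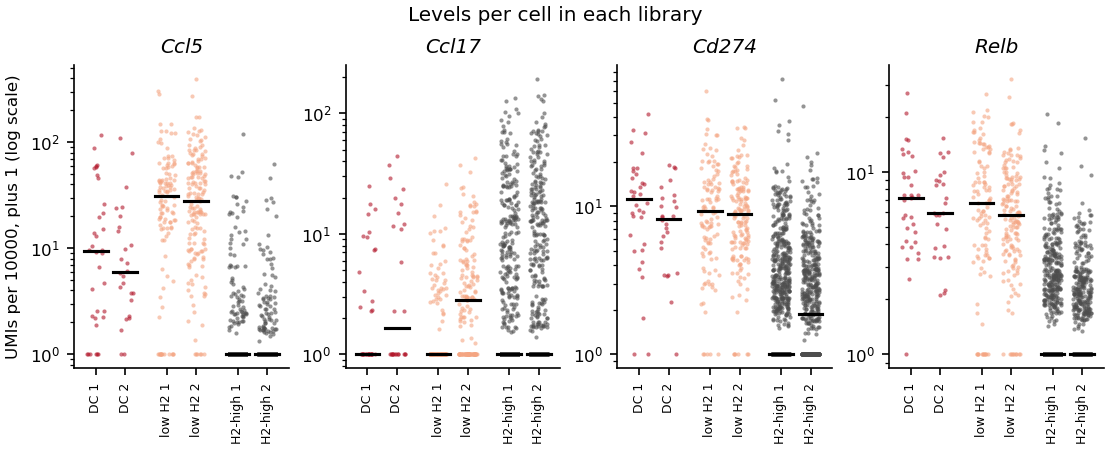
Levels of Ccl5, Ccl17, Cd274 and Relb per cell (UMIs per 10000, plus 1, log scale) in members (DC), Ccr7 Fscn1 cells below the H2 threshold (low H2) and H2-high comparison cells of libraries 1 and 2, with medians as bars. Cd274 and Relb overlap in both Ccr7 Fscn1 sets, Ccl5 is higher below the threshold, and Ccl17 spans the whole range with medians of the members at 0 or close to it.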

How the data were processed

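Each deposited matrix holds integer UMI counts of genes in filtered barcodes. The submitters' processing notes name Cell Ranger 7.1.0 and the build mm10 for these counts of the authors. The members, lists and comparisons were chosen with earlier results of these data known, so no p-value is adjusted over a list alone.

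Filters are given with the members. Counts were summed per library and cell set and tested in R 4.3.3 with edgeR 4.0.16 (TMM, filterByExpr, glmQLFit, glmQLFTest, library as a block, Benjamini-Hochberg adjusted p under 0.05). The block pairs sums that come from the same library. Genes of the rules stayed in library sizes and out of the tests. Each fit had 4 sums. The SE of an edgeR log2 fold was its absolute value divided by the square root of the F statistic. DESeq2 1.42.0 (adjusted p given as NA stays out of its calls), fits without the block, without the expression filter, with cells matched on total UMIs and with other cell filters were alternatives. Scrublet ran in scanpy 1.11.5. Because it called 0 doublets, which does not show that none were present, the highest scores were removed in an alternative instead, at 0.8% per 1000 cells. How well its scores rank doublets here was not tested. The chi-square between the sums of both libraries was 3.66 to 15.1 per degree of freedom, above sampling noise, so none was a repeat deposit.

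The text names, against H2-high cells, the 12 largest rises and 8 largest falls among called genes that move the same way in both libraries at a mean of at least 50 CPM (5 and 5 elsewhere), 38 genes by name, and in each list the 3 called genes with the largest change and the most abundant gene not called. Ciita, H2-DMa and H2-DMb2 against H2-high cells, and Rel, Traf3, Stat4, Gpr183, H2-K1, B2m, Psme2, Fabp5, Il1b, Ly75, Tnfsf4, Serpinb9, Socs1 and H2-DMb1 where the rule does not give them, and the other genes listed without values were named after their values were seen. Genes with 0 UMIs in a set are bounds against 3 UMIs over the set, and genes with 1 to 3 UMIs are ratios with exact counting intervals. Shares carry Clopper-Pearson 95% intervals (scipy 1.17.1). Cells were thinned to 2000 UMIs for shares, leaving out up to 4 shallower cells of a library among Ccr7 Fscn1 cells and 88 and 14 comparison cells.

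On simulated data with 200 genes changed, the comparison with H2-high cells (10834 genes) recovered 42 of 100 changes of 2-fold and 90 of 100 of 4-fold with 3.65% false calls. For type 1 cells (6150 genes) it was 39 and 90 with 7.86%, for type 2 cells (8508 genes) 38 and 87 with 1.57%, and for cells below the H2 threshold (6374 genes) 25 and 95 with 6.25%. Gene positions are from GENCODE and promoters from RefSeq (GRCm38.p6), using the first entry of each gene. Plots were drawn with matplotlib 3.10.9. A few genes that the naming rule gives are not reported here.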

Additional observations from a re-analysis of the deposited data

How the results depend on the processing

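The sets hold 60 members in 2 libraries, and the block leaves 1 residual degree of freedom. The replicate block pairs the cell sets of a library. Genes higher and lower without it were 456 and 311 against H2-high cells, 640 and 518 against type 2 cells and 0 and 0 against cells below the H2 threshold, and 1 was higher in the Il12b split. DESeq2 gave 517 and 351 against H2-high cells, 377 and 245 against type 1, 420 and 280 against type 2, 13 and 13 against cells below the threshold, 2 and 2 in the Il12b split and 0 higher in the Ccl17 split. With depth-matched cells 639 were lower against H2-high cells, 345 and 265 were called against type 2 cells and 7 and 6 against cells below the threshold. In the last comparison 35 and 26 were called without cells over 2 C1q UMIs and 16 and 15 without the highest Scrublet scores. Without a filter on low counts the Il12b split called 4 and 8 and the Ccl17 split 0 higher, as it did over all members without matching. With any H2 share, an alternative chosen after the data were seen like the low-H2 comparison, 2218 genes were higher and 2441 lower and the members' share was 1.84%. The share was 0.298 to 0.364% when a library was left out. The cause of these shifts was not tested.

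Directions turned for few genes. Cxcl9 turned with DESeq2 (-0.29 against H2-high cells, -0.81 against type 1, -0.36 against cells below the threshold) and without library 1 (-2.75, -3.99 and -4.29, and -2.54 against type 2), since library 2 had 0 UMIs. Without library 2 it was 1.62 against H2-high cells, 2.52 against type 1, 3.62 against type 2 and 3.94 against cells below the threshold. Against H2-high cells, members with at most 2 C1q UMIs gave Arg1 -4.84, Trem2 -1.47, Pf4 -1.33, Apoe -1.98 and F13a1 -4.78, and without the highest Scrublet scores Arg1 was -2.46, Apoe -0.17 and F13a1 -5.20. Apoe was -0.25 without library 1 and 2.24 without library 2. Igkc was 0.23 without B cells and plasmacytoid cells, Clec4d 0.38 against cells with Flt3 or Zbtb46 UMIs, and Ifi30 -0.42 and Gapdh -0.38 with any H2 share. Itgam against type 1 cells was -2.41 with at most 2 C1q UMIs.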
